A study of Mus with 6 samples.

Results

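The genes described here are 10 genes of the brain endothelium and the blood-brain barrier, chosen by symbol among the 19505 genes measured in the series: Cldn5, Flt1, Slco1a4, Abcb1a, Abcg2, Slc2a1, Mfsd2a, Pecam1, Tek and Ly6c1. Each had a single probe set, which is a set of array probes read as 1 value. RNA was taken from brain tissue of 6 samples of ICR mice, an outbred stock, and hybridised to 1-colour Affymetrix arrays, with 2 biological replicates in each of 3 groups. CK mice received ginsenoside compound K by mouth at 40 mg/kg and SCOP by injection at 2 mg/kg, SCOP mice received the injection of 2 mg/kg alone, and Control mice received saline. The labels and the methods spell SCOP as scopoletin hydrobromide, and the labels call the SCOP group Model. In the study's methods CK or saline was given daily, SCOP was injected from the seventh day on, and brains were taken after behavioural tests that included electric shocks to the feet. Age, sex, the part of the brain used and whether a sample was 1 mouse or a pool are not given in the sources used here, so p-values measure only the spread between these samples.

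Endothelial cells of brain capillaries are sealed to each other by tight junctions and let few substances pass between them. What enters the brain does so largely through carriers in the endothelial membrane, efflux pumps return many drugs to the blood, and transport in vesicles is held low. The 10 genes cover these functions: a junction protein (Cldn5), carriers for nutrients (Slc2a1, Mfsd2a), pumps and carriers for drugs and organic anions (Abcb1a, Abcg2, Slco1a4), receptors for vessel growth factors (Flt1, Tek) and surface proteins of endothelial cells (Pecam1, Ly6c1). Endothelial cells are a small share of brain tissue, and in such bulk samples fewer endothelial cells and less RNA per cell cannot be told apart.

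One array stood apart. SCOP replicate 2 correlated with the other arrays across genes at 0.965 to 0.969, while the other 5 correlated with each other at 0.990 to 0.993. Its GC-rich background control probes (16 or more G or C) had a mean log2 value of 6.10, and those of the 5 other arrays had means of 4.99 to 5.19. Where the size of a change that involves SCOP is given, its value without this array is given too. In the fit without it, SCOP replicate 1 alone stands for SCOP, under the assumption that SCOP samples spread as CK and Control samples do. Values are log2 RMA values, on which a difference of 1 is a doubling. A value was called dim where more than 5% of the negative control probe sets of its array were brighter, a level of 4.98 to 5.55.

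No barrier gene passed an adjusted p under 0.05 in limma, a linear model fitted to all genes, in CK against SCOP, in SCOP against Control or in CK against Control. The background was the same: 0% of the 19505 genes passed in each comparison. In CK against SCOP 2 of the 10 genes had an unadjusted p under 0.05 in limma, where 2.57% of all genes did: Slco1a4 was lower, as were 1.43% of all genes, and Tek was higher, as were 1.14%. These were also the only 2 of the 10 whose arrays did not overlap between CK and SCOP, where 29.7% of all genes had no overlap. None of the 10 had an unadjusted p under 0.05 in SCOP against Control, where 3.31% of all genes did (2.25% higher, 1.06% lower), or in CK against Control, where 1.44% did (0.969% higher, 0.467% lower). The Student t-test named in the methods gave 0 of the 10 at an unadjusted p under 0.05 in each comparison, where 2.99%, 2.83% and 5% of all genes had one in CK against SCOP, SCOP against Control and CK against Control. On 8 of the 10 genes every array was above the dim level. Tek was dim on all 6 arrays, as were 48.5% of all genes, and Pecam1 was dim on 3 arrays.

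**Figure D1:**
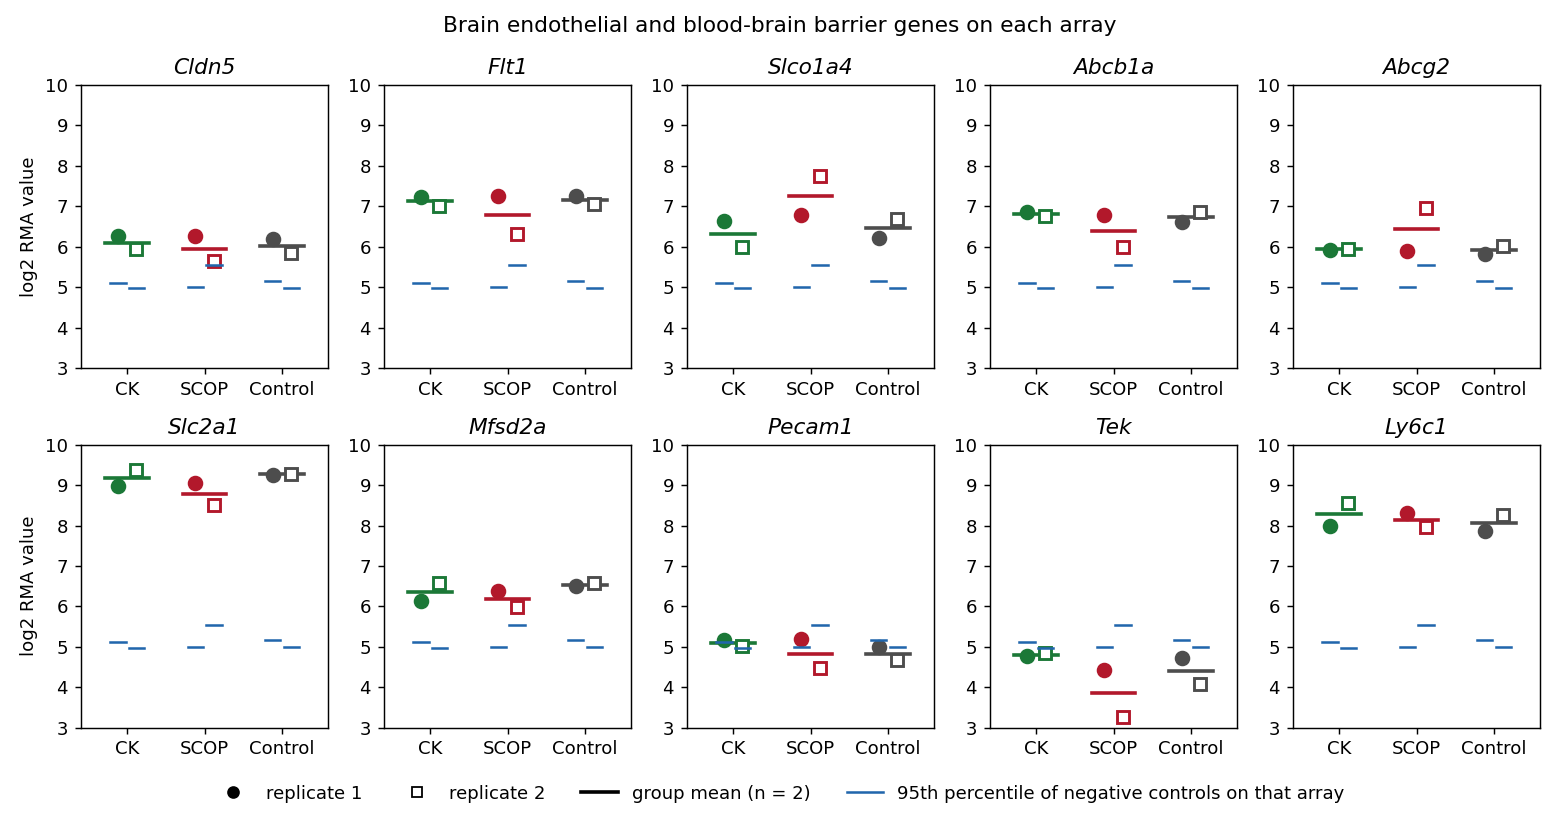
Log2 RMA value (vertical axis) of each of the 10 genes in the CK, SCOP and Control groups (horizontal axis); filled circles are replicate 1, open squares replicate 2, bars the mean of the 2 arrays, and short blue lines the dim level of each array. SCOP replicate 2 lies below the 5 other arrays for 7 genes and above them for Slco1a4 and Abcg2, and every point of Tek lies below its blue line.

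Slco1a4 encodes the organic anion transporter Oatp1a4, found on brain capillaries. It read 6.64 and 5.98 on the CK arrays, 6.77 and 7.74 on the SCOP arrays and 6.21 and 6.69 on the Control arrays. Both CK arrays were below both SCOP arrays, while CK and Control overlapped. The log2 change in CK against SCOP was -0.94 (standard error 0.37, 95% interval -1.79 to -0.10, adjusted p = 0.890 in limma), a 1.92-fold lower level in CK. The gap between the 2 SCOP arrays was 0.96, slightly more than that change. Without SCOP replicate 2 the change was -0.46, with an interval of -1.22 to 0.30. In SCOP against Control both SCOP arrays were above both Control arrays, with a change of 0.81 (interval -0.037 to 1.65, adjusted p = 0.864 in limma), which was 0.32 without SCOP replicate 2 (interval -0.43 to 1.08). These 2 comparisons share the SCOP arrays. The CK replicates themselves differed by 0.66, the widest gap within CK for any of the 10 genes.

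Abcg2 encodes the breast cancer resistance protein, an efflux pump on the blood side of brain endothelial cells. It read 5.93 and 5.95 on the CK arrays, 5.90 and 6.95 on the SCOP arrays and 5.83 and 6.02 on the Control arrays. All arrays other than SCOP replicate 2 lay within 0.19 of each other, and SCOP replicate 2 was 1.02 above their mean. The change in CK against SCOP was -0.49 (interval -1.24 to 0.26, adjusted p = 0.890 in limma) and 0.037 without that array (interval -0.39 to 0.46). Set against Control, SCOP was 0.50 higher with SCOP replicate 2 and had a change of -0.023 without it. The change in CK against Control was 0.014, with an interval of -0.73 to 0.76 on all arrays and of -0.33 to 0.36 without SCOP replicate 2.

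Abcb1a encodes P-glycoprotein, the efflux pump that keeps many lipid-soluble drugs out of the brain. It read 6.85 and 6.76 on the CK arrays, 6.78 and 6.00 on the SCOP arrays and 6.61 and 6.86 on the Control arrays. SCOP replicate 1 lay between the CK arrays, and SCOP replicate 2 was the lowest of all. CK differed from SCOP by a change of 0.41 (interval -0.23 to 1.06, adjusted p = 0.890 in limma) and 0.023 without SCOP replicate 2 (interval -0.43 to 0.47). The change in SCOP against Control was -0.35 and, without that array, 0.046. Thus on SCOP replicate 2 the pump genes Abcb1a and Abcg2 lay on opposite sides of the other arrays.

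Slc2a1 encodes the glucose transporter GLUT1, which carries glucose across the barrier and is also made by astrocytes. It read 8.99 and 9.38 on the CK arrays, 9.06 and 8.50 on the SCOP arrays and 9.26 and 9.28 on the Control arrays. Both SCOP arrays were below both Control arrays, the replicates of which differed by only 0.020. The change in SCOP against Control was -0.49 (standard error 0.25, interval -1.07 to 0.093, adjusted p = 0.864 in limma). It was -0.21 without SCOP replicate 2, with an interval of -0.72 to 0.29. CK overlapped SCOP, with a change of 0.41 (interval -0.17 to 0.99) that was 0.13 without SCOP replicate 2.

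Mfsd2a encodes a carrier for lysophosphatidylcholine that brings docosahexaenoic acid into the brain and holds vesicle transport low. It read 6.12 and 6.57 on the CK arrays, 6.38 and 5.98 on the SCOP arrays and 6.50 and 6.58 on the Control arrays. Both SCOP arrays were below both Control arrays here too, with a change of -0.36 (standard error 0.24, interval -0.91 to 0.20, adjusted p = 0.864 in limma) and of -0.16 without SCOP replicate 2. CK overlapped both other groups, and its change against SCOP was 0.17, or -0.032 without SCOP replicate 2. Between SCOP and Control, Slc2a1, Mfsd2a and Slco1a4 were the 3 of the 10 genes whose arrays did not overlap, where 28.2% of all genes had no overlap. SCOP was the lower group for 2 of them, as for 13.3% of all genes, and the higher group for 1, as for 15% of all genes.

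Cldn5 encodes claudin-5, the main claudin of tight junctions in brain capillaries. It read 6.25 and 5.94 on the CK arrays, 6.27 and 5.63 on the SCOP arrays and 6.20 and 5.84 on the Control arrays. The 3 groups overlapped, and the change was 0.14 in CK against SCOP (interval -0.49 to 0.77), -0.065 in SCOP against Control (interval -0.69 to 0.56) and 0.078 in CK against Control (interval -0.55 to 0.71). The first 2 of these were -0.18 and 0.25 when SCOP replicate 2 was left out. SCOP replicate 2, the lowest array, was only 0.085 above its own dim level.

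Pecam1 encodes the adhesion protein CD31 of endothelial cells, platelets and leukocytes. It read 5.16 and 5.02 on the CK arrays, 5.19 and 4.47 on the SCOP arrays and 4.99 and 4.68 on the Control arrays. Both CK arrays were above both Control arrays, with a change of 0.26 (standard error 0.27, interval -0.37 to 0.88, adjusted p = 0.9999 in limma). Both Control arrays were dim, and the CK arrays lay just above their dim levels of 5.11 and 4.98. With Control set to its dim level, the estimate was a 1.01-fold higher level in CK. CK and SCOP overlapped, as did SCOP and Control. The change was 0.26 in CK against SCOP and -0.0064 in SCOP against Control, and leaving out SCOP replicate 2, which was dim, gave -0.097 and 0.35. Between CK and Control, Pecam1 and Tek were the 2 of the 10 genes without overlap, where 34.1% of all genes had none, and CK was the higher group for both, as for 18.4% of all genes.

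Flt1 encodes VEGF receptor 1, a receptor that binds VEGF-A, VEGF-B and placental growth factor. It read 7.24 and 7.02 on the CK arrays, 7.25 and 6.32 on the SCOP arrays and 7.26 and 7.04 on the Control arrays. The CK, SCOP replicate 1 and Control arrays lay within 0.24 of each other, and SCOP replicate 2 was 0.84 below their mean. The change in CK against SCOP was 0.34 (interval -0.37 to 1.05, adjusted p = 0.890 in limma), and -0.13 without that array (interval -0.59 to 0.34). SCOP against Control gave -0.37, and 0.10 without that array. CK against Control gave -0.025, and its interval without SCOP replicate 2 was -0.41 to 0.36.

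Tek encodes Tie2, the receptor for angiopoietins that keeps vessels quiescent. It read 4.77 and 4.84 on the CK arrays, 4.43 and 3.27 on the SCOP arrays and 4.72 and 4.07 on the Control arrays. Both CK arrays were above all SCOP and Control arrays. The difference between CK and SCOP had an unadjusted p under 0.05 on all arrays (adjusted p = 0.890 in limma), and not without SCOP replicate 2, the lowest array. Every reading of Tek was below the dim level, so no fold and no size of a change are given for it.

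Ly6c1 encodes a small GPI-anchored surface protein of the Ly6 family, found on brain endothelial cells in mice. It read 7.99 and 8.56 on the CK arrays, 8.30 and 7.95 on the SCOP arrays and 7.86 and 8.27 on the Control arrays. All groups overlapped, and the replicates of each group differed by 0.35 to 0.57. The change was 0.15 in CK against SCOP, 0.060 in SCOP against Control and 0.21 in CK against Control, and the first 2 of these were -0.025 and 0.23 when SCOP replicate 2 was left out. It was the only one of the 10 genes for which SCOP replicate 2 was neither the highest nor the lowest array.

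Over the 5 arrays other than SCOP replicate 2 the standard deviation of a gene's values was 0.068 for Abcg2, 0.10 for Abcb1a and 0.12 for Flt1, and it was highest for Tek (0.32) and Slco1a4 (0.35). SCOP replicate 2 was the lowest array for 7 of the genes (Cldn5, Flt1, Abcb1a, Slc2a1, Mfsd2a, Pecam1 and Tek) and the highest for 2, while over all 19505 genes it was the lowest for 33.2% and the highest for 32.6%. It differed from the mean of the others by more than 0.5 for 7 of the 10 genes, against 33.1% of all genes. Of all genes 48.5% were dim on every array, as was 1 of the 10, and the shares over all genes include them. The deviation of SCOP replicate 2 was 1.28 for Slco1a4, above or equal to that of 99.8% of genes. For Abcg2 it was 1.02, above or equal to that of 98.8%. The median deviation of the 10 genes was -0.50, against 0.0095 over all genes. Most of the 10 genes thus read low on this array, the pump gene Abcb1a among them, while Slco1a4 and Abcg2 read high.

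**Figure D2:**
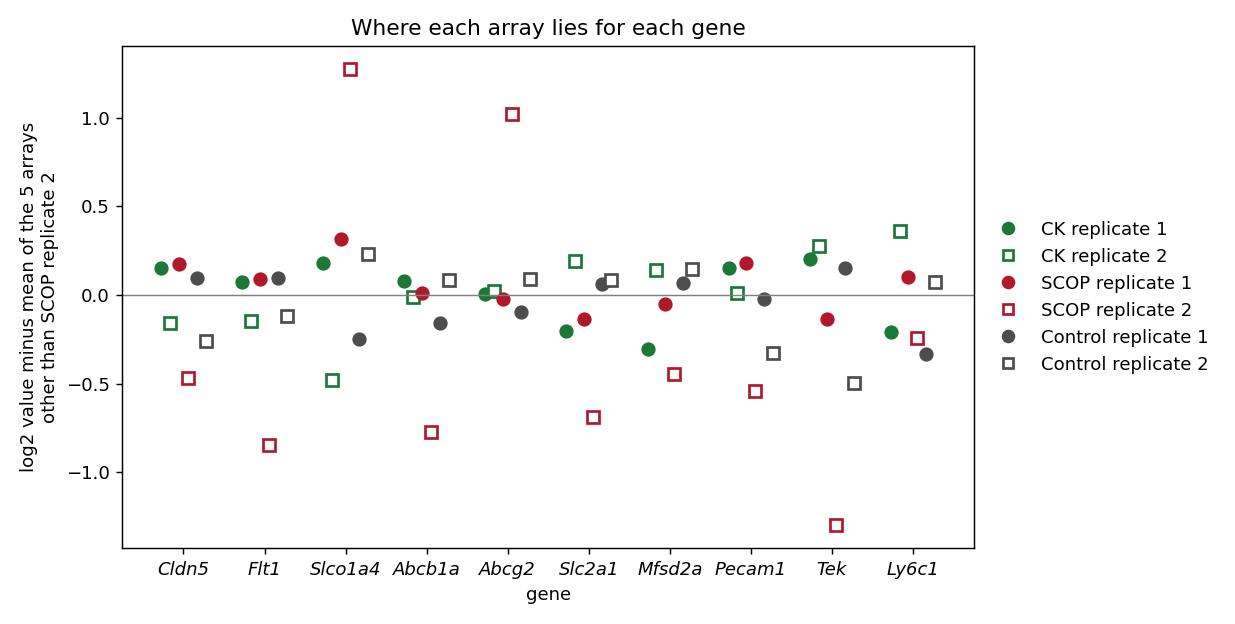
Log2 value of each array minus the mean of the 5 arrays other than SCOP replicate 2 (vertical axis) for each of the 10 genes (horizontal axis); green is CK, red SCOP and grey Control, with filled circles for replicate 1 and open squares for replicate 2. SCOP replicate 2 lies at 1.28 for Slco1a4, 1.02 for Abcg2 and -0.84 for Flt1, the readings of Tek are all dim, and SCOP replicate 1 stays among the CK and Control arrays for most genes.

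In CK against SCOP the changes of the 9 genes other than Tek lay between -0.94 and 0.41. The median of all 10 was 0.21, against 0.017 over all genes, and 8 were above 0, as were 52.4% of all genes. With SCOP replicate 2 left out the median was -0.028, 4 of the 10 were above 0, and 0 had an unadjusted p under 0.05 in limma. The changes of the 9 genes in SCOP against Control lay between -0.49 and 0.81. The median of all 10 was -0.21, against 0.00043 over all genes. Of the 10, 7 were below 0 and 3 above it, where 50.1% of all genes were above 0. That median was 0.074 without SCOP replicate 2, and 3 of the 10 were below 0. Both medians involve the same SCOP arrays. The shares of all genes above 0 without SCOP replicate 2 were not computed.

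CK against Control, which does not use the SCOP arrays for its changes, gave changes between -0.19 for Mfsd2a and 0.26 for Pecam1 among these 9 genes. The median of all 10 was 0.041, against 0.014 over all genes. The 95% intervals of the 9 genes lay within -0.98 to 0.88 on all arrays, where SCOP replicate 2 enters the estimate of the spread, and within -0.76 to 0.76 without that array. The narrowest of them without that array, for Abcg2, was the -0.33 to 0.36 given above, and the widest, for Slco1a4, was -0.76 to 0.48. A comparison of 2 arrays with 2 cannot reach an exact permutation p below 0.333.

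**Figure D3:**
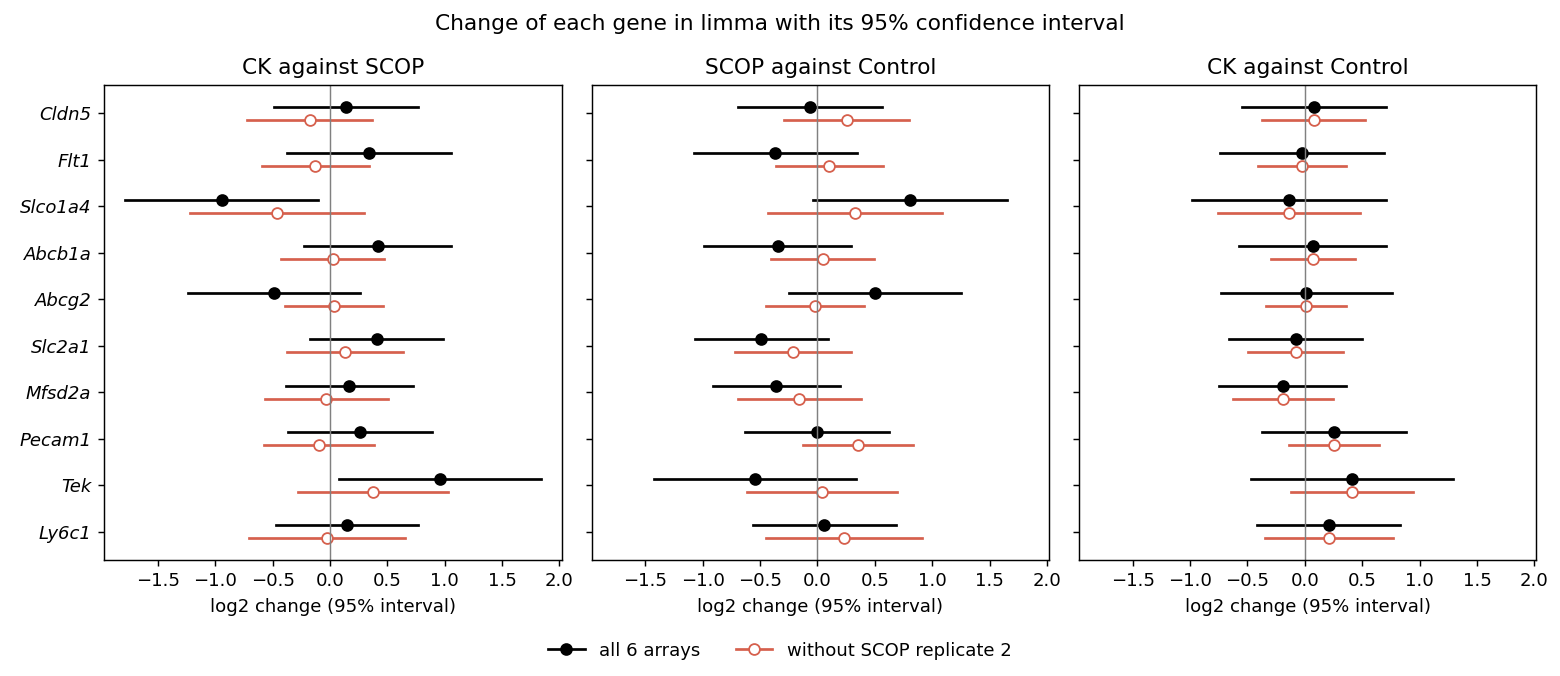
Log2 change (horizontal axis) of each of the 10 genes (vertical axis) in CK against SCOP, SCOP against Control and CK against Control, with 95% confidence intervals from limma; black is all 6 arrays and red the fit without SCOP replicate 2. The black intervals of Slco1a4 and Tek in CK against SCOP leave out 0, and all red intervals include it; the points of Tek are differences between dim readings and measure no fold.

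Several of these genes have close relatives beside them in the genome, whose transcripts could share probes; the probe sequences were not used here, and this was not tested. In RefSeq order Abcb1b lies next to Abcb1a, Ly6c2 next to Ly6c1 and Slco1a1 next to Slco1a4, with 0 protein-coding genes between them. Abcb1b, the other mouse P-glycoprotein gene, read 5.98 and 5.75 on the CK arrays, 5.73 and 5.66 on the SCOP arrays and 5.67 and 5.74 on the Control arrays. It too was lowest on SCOP replicate 2, though near the other arrays, unlike Abcb1a. That reading was close to the array's dim level of 5.55, so background limits the size of its difference from the others. The dim level is not a floor: Tek read 3.27 on that array. Ly6c2, a gene of monocytes, read 4.89 and 5.39 in CK, 5.21 and 4.91 in SCOP and 4.69 and 5.26 in Control, and was dim on 3 arrays. Slco1a1, Slco1a5 and Slco1a6 were dim on every array, and Slco1a1 read 1.77 and 1.82 in CK, 1.69 and 1.83 in SCOP and 1.73 and 2.54 in Control. Of these 3 only Slco1a5 was highest on SCOP replicate 2, at 2.26, far below the dim level of that array. Slco1c1, the thyroid hormone carrier of the barrier, read 7.81 and 7.86 in CK, 7.92 and 7.90 in SCOP and 7.70 and 7.76 in Control.

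Other vascular genes were taken from 7 lists: junctions, barrier transporters, caveolae, the VEGF and angiopoietin pathway, Wnt signals with barrier transcription factors, general endothelial genes, and endothelial activation. Of 158 listed genes, 148 were measured, and 52 of these were dim on every array, where 48.5% of all genes were. In limma 0 of the 148 passed an adjusted p under 0.05 in any comparison. Those with an unadjusted p under 0.05 numbered 3 (2.03%) in CK against SCOP, 4 (2.7%) in SCOP against Control and 2 (1.35%) in CK against Control, near the shares over all genes. When SCOP replicate 2 was left out these counts were 5 (3.38%), 10 (6.76%) and 10 (6.76%), where 3.76%, 4.74% and 5.18% of all genes passed.

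Of the junction genes 15 of 16 were measured, with a median change of 0.041 in CK against SCOP and 0.073 in SCOP against Control, or 0.059 and -0.023 without SCOP replicate 2. Cgnl1, which encodes the junction protein paracingulin, was the single one with an unadjusted p under 0.05 on all arrays, and read 5.53 and 5.31 in CK, 5.02 and 4.65 in SCOP and 5.25 and 5.45 in Control. Its change in CK against SCOP was 0.58 (adjusted p = 0.890 in limma), and 0.40 without SCOP replicate 2. SCOP against Control gave -0.51 (adjusted p = 0.864 in limma), and -0.33 without that array. Cgnl1 was dim on SCOP replicate 2, and SCOP replicate 1 lay close to its dim level of 5.01, so background limits these sizes. Of the barrier transporters 28 of 29 were measured, 0 of them had an unadjusted p under 0.05 in any comparison on all arrays in limma, and their median changes were 0.097 in CK against SCOP, -0.12 in SCOP against Control and -0.046 in CK against Control. Without SCOP replicate 2 the first 2 of these medians had the opposite sign, at -0.12 and 0.091.

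Of 9 genes of caveolae and transcytosis, 2 were higher in CK than in Control at an unadjusted p under 0.05, as were 0.969% of all genes, and these were the only 2 of the 148 vascular genes with such a p in CK against Control on all arrays. Plvap, which encodes the diaphragm protein of fenestrated vessels and of caveolae and is low in mature barrier vessels, read 5.90 and 5.76 in CK, 5.71 and 4.95 in SCOP and 5.13 and 5.01 in Control. Plvap was dim on SCOP replicate 2 and Control replicate 1, and Control replicate 2 lay near its dim level of 4.98. Its change in CK against Control, the size of which these low readings limit, was 0.76 (adjusted p = 0.9999 in limma). The 2 CK arrays were the highest of all. SCOP replicate 1 lay close below them, and in the fit without SCOP replicate 2 the change of Plvap was 0.12 in CK against SCOP and 0.64 in SCOP against Control. Cavin2, a coat protein of caveolae, was dim on every array and read 3.69 and 3.85 in CK, 3.78 and 3.37 in SCOP and 3.18 and 3.02 in Control (adjusted p = 0.9999 in limma for CK against Control). The median of the 9 genes was 0.13 there. Vessels of the choroid plexus are fenestrated, and the mean of 12 choroid plexus genes was 5.45 to 5.58 on the CK arrays, 4.98 to 5.57 on the SCOP arrays and 5.17 to 5.53 on the Control arrays, with a median change of 0.24 in CK against Control; its part in the Plvap values was not tested.

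In the VEGF and angiopoietin list 18 of 19 genes were measured and 10 were dim on every array, where 48.5% of all genes were. Nrp2, a co-receptor for VEGF and semaphorins, had a change of 0.54 in CK against SCOP (adjusted p = 0.890 in limma), and 0.31 without SCOP replicate 2. Flt4, VEGF receptor 3, was dim on every array and read 3.03 and 3.24 in SCOP and 3.71 and 3.74 in Control (adjusted p = 0.864 in limma). Kdr, VEGF receptor 2 and the relative of Flt1, read 5.56 and 5.43 in CK, 5.91 and 4.33 in SCOP and 5.57 and 4.97 in Control. Its SCOP arrays were thus the highest and the lowest of the 6. Kdr was dim on SCOP replicate 2 and on Control replicate 2, so background limits these low readings. In the Wnt and transcription factor list, with 27 of 31 genes measured, the ETS factor Fli1 read 4.73 and 4.92 in CK, 5.44 and 5.61 in SCOP and 5.36 and 4.92 in Control, with 3 of these values dim. The dim values of Fli1 were those of both CK arrays and of Control replicate 2, so background limits the size of its changes. In CK against SCOP its change was -0.70 (adjusted p = 0.890 in limma), and -0.61 without SCOP replicate 2. Sox18, a SOX factor of endothelial cells, read 5.17 and 4.999 in SCOP and 4.64 and 4.21 in Control. This was a change of 0.66 (adjusted p = 0.864 in limma), and of 0.75 without SCOP replicate 2. Sox18 was dim on 4 of the 6 arrays, both Control arrays and SCOP replicate 2 among them, so background limits these sizes too.

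Among the general endothelial genes 33 of 36 were measured, and their median change was 0.15 in CK against SCOP, -0.10 in SCOP against Control and 0.013 in CK against Control. Leaving out SCOP replicate 2 gave -0.015 and 0.059 for the first 2 of these. Col4a2, a collagen of the vessel basement membrane, was the single one with an unadjusted p under 0.05 on all arrays, in SCOP against Control, with 4.72 and 5.38 in SCOP and 4.42 and 4.005 in Control, all of them dim. None of the 18 measured genes of endothelial activation, among them the adhesion molecules that bind leukocytes, had an unadjusted p under 0.05 in any comparison on all arrays in limma. Without SCOP replicate 2 there was 1, the chemokine gene Ccl2 in CK against Control, which was dim on all 6 arrays.

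Markers of some other cell types also stood apart on SCOP replicate 2, and others did not. The 14 neuron genes measured had a mean of 8.96 on it, against 9.77 to 9.81 on the 5 others. In SCOP against Control 14 of their 14 changes were below 0 on all arrays, where 50.1% of all genes were above 0. The list's median change in that comparison was -0.45, and -0.0053 without SCOP replicate 2. Likewise, 14 astrocyte genes had a mean of 7.94 there, against 8.20 to 8.32 on the others, and 22 genes of pericytes and smooth muscle had a mean of 4.87, against 5.12 to 5.29. Blood leukocyte and erythroid genes, 11 of 15 of which were dim on every array (48.5% of all genes were), lay the other way. Their mean was 4.13 there, against 3.43 to 3.75 on the others. Microglia (13 genes), with a mean of 5.56 there, and 13 genes of meningeal and perivascular fibroblasts, with a mean of 5.79 there, lay within the ranges of the others, 5.28 to 5.69 and 5.77 to 6.06. For 11 oligodendrocyte genes the mean was 8.18 to 8.43 on the CK arrays, 8.16 to 8.20 on the SCOP arrays and 8.35 to 8.44 on the Control arrays, so that CK overlapped both, with a median change in SCOP against Control of -0.28 with SCOP replicate 2 and -0.27 without it. The part of these shifts in the values of the barrier genes was not tested.

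**Figure D4:**
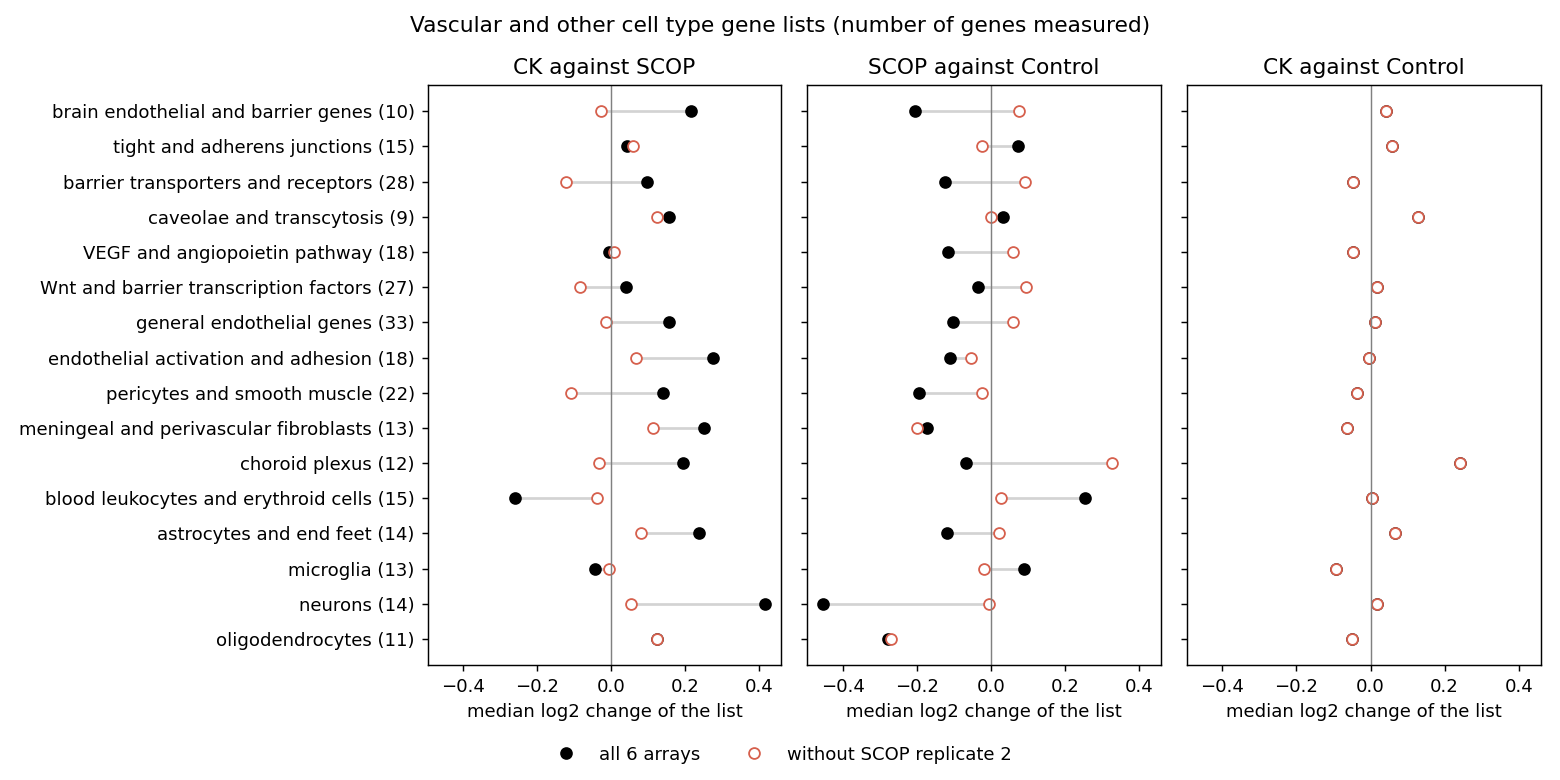
Median log2 change (horizontal axis) of the 10 barrier genes and of 15 other gene lists (vertical axis, with the number of genes measured) in the 3 comparisons; black points are all 6 arrays and open red points the fit without SCOP replicate 2. The barrier genes lie at 0.21 and -0.21 in the 2 comparisons that involve SCOP and at -0.028 and 0.074 without SCOP replicate 2, and in CK against Control both points coincide for every list.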

How the data were processed

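The authors extracted total RNA with Trizol, labelled it with biotin, hybridised it to Affymetrix arrays and, per the labels' processing notes, deposited log2 values made with RMA, a method that removes background, brings the arrays to 1 distribution and joins each probe set's probes into 1 value. Its version was not given in the sources used here. Values were used as deposited. Probe sets were named from GEO's platform annotation, which gives 1 symbol for 19572 of 22206 transcript probe sets; all 10 barrier genes matched RefSeq GRCm38.p6 by Entrez identifier. The probe set with the highest mean stood for a gene. All 6 arrays were fitted in limma 3.58.1 (R 4.3.3, lmFit and eBayes) with 3 residual and 5.08 prior degrees of freedom, and p-values were adjusted over 19505 genes by the Benjamini-Hochberg method. The fit was tested on simulated data. The number of arrays limits the precision. Genes and lists were chosen with earlier results of these data known, so no list was tested. All 10 genes were named, with relatives near them in RefSeq order, whose protein identity was not computed. Of each other list, up to 3 genes with the smallest p in a comparison were named. Slco1c1 and Kdr, which are outside this rule, were named after their values were seen. No GRCm38 coordinates are given, since the build of the array files is not stated.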

Additional observations from a re-analysis of the deposited data

How the results depend on the processing

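Alternatives were quantile and cyclic loess normalization, centred medians, removal of genes with a mean under the 25th percentile or under the median, averages over a gene's probe sets, trended or robust eBayes, a replicate block, only the arrays compared, the methods' t-test and each array left out. No barrier gene passed an adjusted p under 0.05 in any of them except without SCOP replicate 1, when the array that stood apart is the lone SCOP array: Flt1, Slco1a4, Abcb1a, Abcg2 and Tek then passed in CK against SCOP and in SCOP against Control, where 16.6% and 16.1% of all genes passed. Few arrays and dim values, of Tek and Pecam1 above all, limit every result.

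With an array left out, limma called 0 to 3240 of all genes at an adjusted p under 0.05 in CK against SCOP, 0 to 3137 in SCOP against Control and 0 in CK against Control, each upper value without SCOP replicate 1; on all arrays it called 0, with 502, 646 and 280 at an unadjusted p under 0.05. The barrier genes at an unadjusted p under 0.05 in limma numbered 0 to 7 in CK against SCOP (0 without SCOP replicate 2 or CK replicate 2, 1 without CK replicate 1) and 0 to 7 in SCOP against Control. Without SCOP replicate 1, when 7 of the 10 had such a p in each, so did 34.5% of all genes in each; in the other leave-outs 0.764% to 3.76% of all genes did in CK against SCOP and 1.29% to 4.74% in SCOP against Control. Their median change was -0.028 to 0.54 in CK against SCOP and -0.47 to 0.074 in SCOP against Control, the values nearer 0 being without SCOP replicate 2, and -0.025 to 0.10 in CK against Control.

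In CK against SCOP 1 barrier gene had an unadjusted p under 0.05 with genes under the median left out, which removes Tek. With the t-test 0 did, where 2.99% of all genes did. In SCOP against Control 1 barrier gene had such a p with cyclic loess, namely Slco1a4. The shares of all genes with such a p were not computed for this filter or for cyclic loess, so those counts have no background beside them. Changes that crossed 0 under another scaling were Cldn5 in SCOP against Control, at 0.0016 with cyclic loess, and Abcg2 in CK against Control, at -0.0026 with quantile normalization, -0.054 with centred medians and -0.00067 with cyclic loess.

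With an array left out, changes that crossed 0 had these ranges. In CK against SCOP they were -1.01 to 0.037 for Abcg2, -0.18 to 0.46 for Cldn5, -0.13 to 0.81 for Flt1, -0.14 to 0.43 for Ly6c1, -0.058 to 0.39 for Mfsd2a and -0.097 to 0.62 for Pecam1. In SCOP against Control they were -0.74 to 0.046 for Abcb1a, -0.023 to 1.03 for Abcg2, -0.38 to 0.25 for Cldn5, -0.83 to 0.10 for Flt1, -0.14 to 0.26 for Ly6c1, -0.37 to 0.35 for Pecam1 and -1.13 to 0.039 for Tek, whose readings are all dim. In CK against Control they were -0.055 to 0.19 for Abcb1a, -0.080 to 0.11 for Abcg2, -0.10 to 0.26 for Cldn5, -0.14 to 0.086 for Flt1, -0.076 to 0.49 for Ly6c1, -0.42 to 0.034 for Mfsd2a, -0.28 to 0.12 for Slc2a1 and -0.47 to 0.19 for Slco1a4. The cause was not tested.

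The labels give the replicates a number and name no pairing. Deviations of same-numbered arrays correlated at -0.028 (CK and SCOP), -0.0049 (CK and Control) and 0.024 (SCOP and Control). With so few arrays these values cannot decide whether same-numbered arrays were paired. With the replicate block 2, 0 and 0 barrier genes had an unadjusted p under 0.05 in CK against SCOP, SCOP against Control and CK against Control. The shares of all genes with such a p were not computed for the block. The medians of 0.21, -0.21 and 0.041 are the same by construction.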
